A study of Homo sapiens with 2 samples.

Results

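The OSBPL genes encode the oxysterol-binding protein-related proteins, a family of lipid transfer proteins, and 10 of them are described here: OSBPL6, OSBPL1A, OSBPL2, OSBPL3, OSBPL5, OSBPL7, OSBPL8, OSBPL9, OSBPL10 and OSBPL11. They were chosen by family membership and because OSBPL6 stood out in earlier results of these data, and they are 10 of 19775 genes that the array names through probe sets with a single gene symbol. Every probe set annotated to a member alone was used, 28 in all, with 1 to 5 per gene. No probe set named a member together with another gene. The arrays, 2 from Affymetrix, were hybridized with RNA of DLD-1, a line from a human colorectal carcinoma. The p53 on array came from cells cultured for 9 h without tetracycline, and the p53 off array came from cells cultured with it. Both cultures carried the same stable tet-off construct, in which tetracycline holds a wild-type p53 transgene silent, and the labels describe no cells without the construct. The labels do not say whether the line is 1 clone. Each condition had 1 array, so no ratio below has a replicate check, no test was made, and the ratios cannot be told apart from any other difference between these 2 cultures or arrays.

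Oxysterol-binding protein-related proteins, or ORPs, share a lipid-binding domain that holds a sterol or a phosphatidylserine molecule in exchange for phosphatidylinositol 4-phosphate, the phosphoinositide that marks the Golgi and the plasma membrane. Most of them also carry a pleckstrin homology domain for a target membrane and a motif that binds the VAP proteins of the endoplasmic reticulum, so they work where that organelle touches another membrane. Sequence similarity sorts the family into subfamilies. OSBPL3, OSBPL6 and OSBPL7 form subfamily III, OSBPL1A and OSBPL2 subfamily II, OSBPL5 and OSBPL8 subfamily IV, OSBPL9 subfamily V, and OSBPL10 and OSBPL11 subfamily VI. The founding genes OSBP and OSBP2, which form subfamily I, are no members here and serve as a comparison.

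The values are MAS5 signal intensities, a linear brightness per probe set, and the mean signal after trimming 2% of probe sets from each end was 499.9 on both arrays. The median signal was 121.8 on the p53 on array and 103.0 on the p53 off array. Signals under a floor of 112.4, the median of all signals that were not controls, were set to the floor before a ratio was taken. Where the p53 off signal was under it, the true fold may be larger, and "at least" stands before it. Where both signals were under it, no ratio was formed. Brightness cannot be compared between probe sets, so each is set only against itself on the other array, and in bulk RNA the level per cell and the share of expressing cells cannot be told apart. On the p53 on array the beta-actin 3' control signal was 7.29 times the 5' signal, against 1.37 times on the p53 off array, and the 18 hybridization spike-in probe sets were a median of 1.89 times brighter (range 1.47 to 2.59). The part of these differences in the ratios below was not tested. Of 12 colon epithelial markers, 10 were measured, with EPCAM at 35534 on the p53 on array and 20250.4 on the p53 off array, while KRT20 and CDX1 lay under the floor on both. Markers of other cell types were dim. Their summed signals over measured genes were 822 on the p53 on array and 319 on the p53 off array for 4 of 10 leukocyte markers, 675 with p53 on and 245 with p53 off for 4 of 6 fibroblast markers, and 529 with p53 on and 179.6 with p53 off for 3 of 5 endothelial markers. All 5 probe sets of the pan-leukocyte gene PTPRC lay under the floor on both arrays.

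The start-site sequences of the 3 members with the highest ratios, OSBPL6, OSBPL7 and OSBPL1A, and of OSBPL10, whose window was the only one of the family with the p53 decamer (the 10-base unit of the p53 response element), are shown because p53 is a DNA-binding transcription factor. They are RefSeq windows of the GRCh38.p14 build, from 250 bases before to 50 after a start, printed 5′ to 3′ on the strand of the gene. OSBPL1A has 3 windows, and only the outer one is printed, since it held 4 GGGCGG and 1 CACGTG, while the 2 inner ones held 1 GGGCGG between them. The OSBPL10 window lies at an inner start. RefSeq places that gene at chr3:31660825-32077692 on the minus strand, and no window covered its outer end. Capitals mark GGGCGG (the GC box core), CACGTG (an E-box) and the p53 decamer, each read on both strands.
OSBPL6, outer start, chr2:178194262-178194561, plus strand: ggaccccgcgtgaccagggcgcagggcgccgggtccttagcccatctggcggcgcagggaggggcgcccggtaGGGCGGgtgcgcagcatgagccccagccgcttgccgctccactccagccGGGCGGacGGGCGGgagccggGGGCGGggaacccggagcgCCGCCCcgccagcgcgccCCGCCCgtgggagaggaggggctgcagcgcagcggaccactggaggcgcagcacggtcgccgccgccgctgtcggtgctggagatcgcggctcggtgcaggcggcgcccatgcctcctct
OSBPL6, inner start, chr2:178319992-178320291, plus strand: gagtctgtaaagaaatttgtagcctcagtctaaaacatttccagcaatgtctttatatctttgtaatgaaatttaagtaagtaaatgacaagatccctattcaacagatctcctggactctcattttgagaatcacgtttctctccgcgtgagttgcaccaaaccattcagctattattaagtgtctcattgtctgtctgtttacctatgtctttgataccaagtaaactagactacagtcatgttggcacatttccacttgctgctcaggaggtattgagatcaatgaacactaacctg
OSBPL7, chr17:47821745-47822044, minus strand: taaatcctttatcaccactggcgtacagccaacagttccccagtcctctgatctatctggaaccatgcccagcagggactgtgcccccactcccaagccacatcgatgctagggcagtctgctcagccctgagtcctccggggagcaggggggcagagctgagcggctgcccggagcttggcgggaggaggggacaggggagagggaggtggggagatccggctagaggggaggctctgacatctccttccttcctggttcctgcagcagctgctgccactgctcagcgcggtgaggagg
OSBPL1A, outer start, chr18:24397775-24398074, minus strand: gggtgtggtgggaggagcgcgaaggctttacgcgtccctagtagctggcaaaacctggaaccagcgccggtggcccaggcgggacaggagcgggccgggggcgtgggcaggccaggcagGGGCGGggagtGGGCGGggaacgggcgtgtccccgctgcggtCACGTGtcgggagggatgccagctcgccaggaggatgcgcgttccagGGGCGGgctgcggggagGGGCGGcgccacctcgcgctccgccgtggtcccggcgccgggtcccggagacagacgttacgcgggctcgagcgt
OSBPL10, chr3:31981213-31981512, minus strand: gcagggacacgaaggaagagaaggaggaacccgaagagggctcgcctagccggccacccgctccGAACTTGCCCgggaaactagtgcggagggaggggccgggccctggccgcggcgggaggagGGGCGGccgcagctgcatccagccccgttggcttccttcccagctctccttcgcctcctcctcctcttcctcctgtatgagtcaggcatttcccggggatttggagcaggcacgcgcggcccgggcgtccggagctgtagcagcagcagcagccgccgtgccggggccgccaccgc

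All 10 members had at least 1 window, 16 in all, and their GC content ran from 33.0 to 79.0%, against a median of 58.7% over 35116 windows of all genes. The outer OSBPL6 start lay in the most GC-rich window of the family, at 79.0% with 6 GGGCGG matches, whereas the inner one had 37.7% and no match of any motif searched. GGGCGG was found in 9 of the 16 windows, and 44.95% of all windows held it. CACGTG was found in the outer window of OSBPL1A and in 1 window of OSBPL8, and 7.26% of all windows held it. The p53 decamer was found in the OSBPL10 window alone, starting at position -186 relative to its inner start site, and in 6.63% of all windows. None of the 16 windows held CACCCCAC, a core of the sterol regulatory element, which was in 2.79% of all windows. These letters describe the windows. They do not show where p53 binds, and the files do not say from which start the probe sets' transcripts came.

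OSBPL6 had the highest ratio of the family on each of its 3 probe sets, all of them dim with p53 off and clearly above the floor with p53 on. ORP6 is a less studied member, known from human cells for a link to cholesterol handling and to the sterol exporter ABCA1. Probe set 223805_at read 4820.1 on the p53 on array and 22.6 on the p53 off array. Probe set 238575_at read 2264 on the p53 on array and 48.7 on the p53 off array, and probe set 236261_at read 627 on the p53 on array and 44.1 on the p53 off array. With each p53 off signal raised to the floor, the gene was at least 42.9-fold, at least 20.2-fold and at least 5.58-fold higher on these probe sets, or 5.42, 4.33 and 2.48 as log2 ratios. The 3 bounds differ by 2.94 on the log2 scale because the p53 on signals differ. Among 25962 measured probe sets with a single gene symbol, the 3 ratios ranked 10th, 35th and 526th from the highest. By its brightest probe set OSBPL6 also ranked 10th of 13978 measured genes. Of 3093 genes with at least 3 measured probe sets, 14, OSBPL6 among them, were at least 4-fold higher on every measured probe set, and 6 at least 5-fold. The gene was picked with this result known, and its probe sets passed the floor only through the p53 on array, so these ranks are a description. The plot of all 28 probe sets shows the wide gap of OSBPL6 beside the short ones of most relatives.

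**Figure D1:**
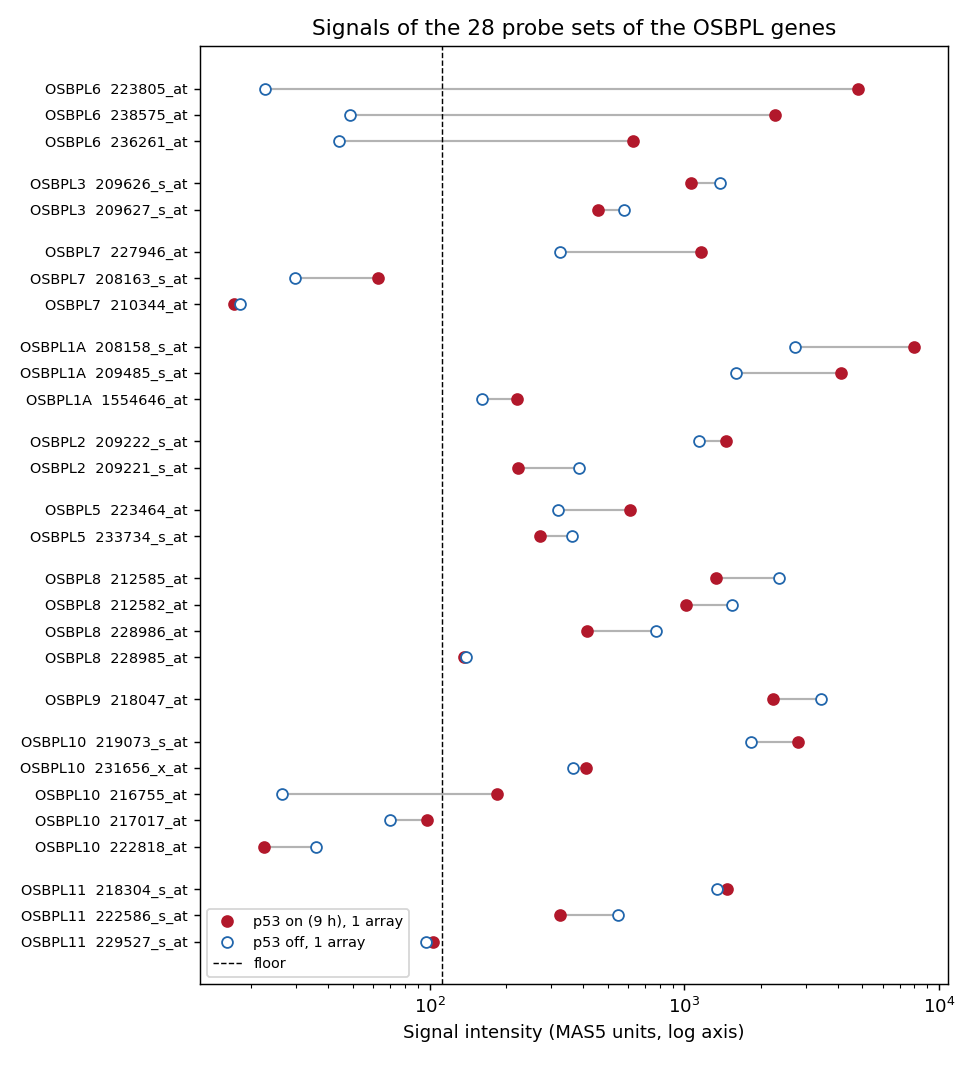
Signal intensity (MAS5 units, log axis) of each of the 28 probe sets of the 10 OSBPL genes, with filled points for the p53 on array, open points for the p53 off array and a dashed line at the floor of 112.4. The 3 OSBPL6 probe sets cross the floor, at 627 to 4820.1 with p53 on against 22.6 to 48.7 with p53 off, while 19 of the 28 lie above it on both arrays.

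The closest relatives of OSBPL6 in sequence went different ways. OSBPL7, whose protein binds the autophagy-related protein GABARAPL2, read 1164 on the p53 on array and 326.1 on the p53 off array on probe set 227946_at. It was 3.57-fold higher, a log2 ratio of 1.84. This was its only measured probe set. The other 2, 208163_s_at at 62.5 with p53 on and 29.7 with p53 off and 210344_at at 17.1 with p53 on and 18.0 with p53 off, lay under the floor on both arrays, so the gene's ratio rests on a single probe set. OSBPL3, whose protein binds the small GTPase R-Ras and acts in cell adhesion, read 1066 on the p53 on array and 1385 on the p53 off array on probe set 209626_s_at. On 209627_s_at it read 460.2 with p53 on and 578.7 with p53 off. The OSBPL3 log2 ratios of -0.38 and -0.33 lay within 2-fold and differed from each other by 0.046. Subfamily III therefore held the highest ratio of the family, the second highest gene and a gene slightly lower with p53 on.

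OSBPL1A was higher on all of its 3 probe sets. Its long protein form sits on late endosomes with the small GTPase RAB7A and senses cholesterol there. Probe set 208158_s_at read 7943 on the p53 on array and 2709 on the p53 off array, a 2.93-fold higher signal, and 209485_s_at read 4124 on the p53 on array and 1596 on the p53 off array, 2.58-fold higher. The third, 1554646_at, read 221.1 with p53 on and 160.5 with p53 off and was 1.38-fold higher. The 2 bright probe sets carry the suffix _s_at, which marks sequence shared between transcripts, and 1554646_at does not. The log2 ratio of OSBPL1A was 1.55 on the brightest probe set and 0.46 without those marked for shared sequence. OSBPL2, the other gene of subfamily II, encodes a short ORP without a pleckstrin homology domain that delivers cholesterol to the plasma membrane. Its probe sets disagreed. On 209222_s_at it read 1455 on the p53 on array and 1144 on the p53 off array, a log2 ratio of 0.35. On 209221_s_at it read 221.7 on the p53 on array and 386 on the p53 off array, a log2 ratio of -0.80. No direction can be given for OSBPL2.

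The ORPs of subfamily IV, which are anchored in the endoplasmic reticulum and carry phosphatidylserine to the plasma membrane, did not move together. OSBPL8 was lower on all of its 4 probe sets, none of them past 2-fold. It read 1334 on the p53 on array and 2356 on the p53 off array on 212585_at. It read 1012 with p53 on and 1534 with p53 off on 212582_at, 414.2 with p53 on and 773.8 with p53 off on 228986_at, and 137.0 with p53 on and 139.0 with p53 off on 228985_at. The log2 ratios were -0.82, -0.60, -0.90 and -0.020, and the smallest belonged to the dimmest probe set. OSBPL5 had 1 probe set in each direction. On 223464_at it read 612.6 on the p53 on array and 320.6 on the p53 off array, 1.91-fold higher, which is just short of 2-fold. On 233734_s_at it read 271.3 on the p53 on array and 361.4 on the p53 off array, a log2 ratio of -0.41. These differ by 1.35 on the log2 scale.

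OSBPL9, which moves sterols between the endoplasmic reticulum and the Golgi, was represented by 1 probe set, 218047_at. It read 2222 on the p53 on array and 3430.1 on the p53 off array and was 1.54-fold lower, a log2 ratio of -0.63. RefSeq lists 6 OSBPL9 pseudogenes, and whether they share sequence with this probe set was not tested.

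In subfamily VI, whose proteins pair with ORP9 at the Golgi, OSBPL10 was slightly higher. On its brightest probe set, 219073_s_at, it read 2785 on the p53 on array and 1829 on the p53 off array, 1.52-fold higher. On 231656_x_at it read 412.2 with p53 on and 366.4 with p53 off, 1.13-fold higher. Probe set 216755_at read 183.8 with p53 on and 26.5 with p53 off, at least 1.64-fold higher, and was the only probe set outside OSBPL6 to pass the floor through a single array. Its 2 further probe sets, 217017_at at 97.9 with p53 on and 69.8 with p53 off and 222818_at at 22.3 with p53 on and 35.7 with p53 off, were not measured. The 3 measured OSBPL10 probe sets were all on the higher side, 1 of them known only by its bound. OSBPL11 disagreed with itself. On 218304_s_at it read 1465 on the p53 on array and 1345 on the p53 off array, a log2 ratio of 0.12. On 222586_s_at it read 323.9 on the p53 on array and 546.7 on the p53 off array, a log2 ratio of -0.76. The third probe set of OSBPL11, 229527_s_at, had 103.5 with p53 on and 96.9 with p53 off and was under the floor.

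**Figure D2:**
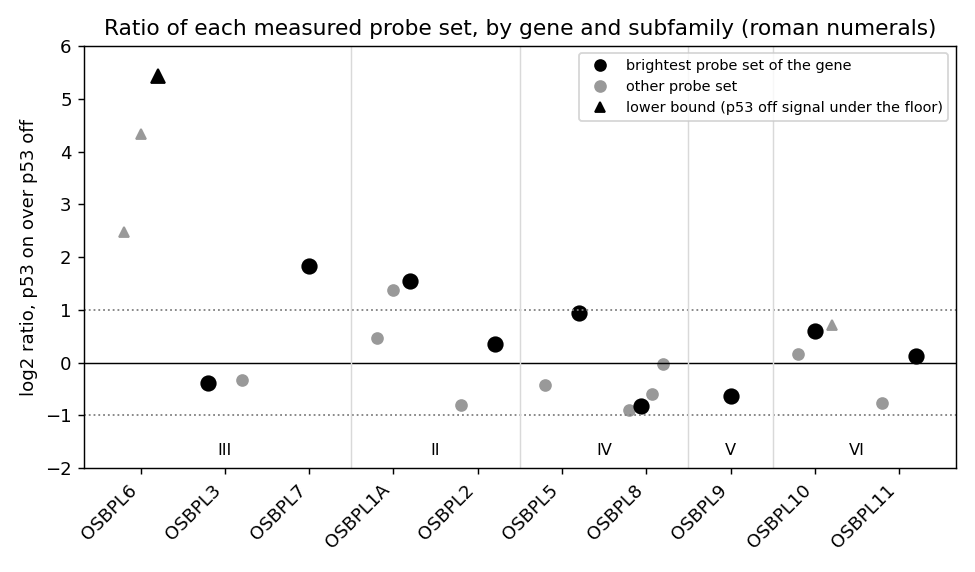
Log2 ratio of the p53 on over the p53 off signal for each measured probe set of the 10 OSBPL genes, grouped by subfamily, with black points for the brightest probe set of a gene, grey points for its others, triangles for lower bounds and dotted lines at 2-fold. OSBPL6 lies at 2.48 to 5.42, the 2 bright probe sets of OSBPL1A and the measured one of OSBPL7 lie above the upper dotted line, and no probe set lies below the lower one.

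Across the family, 19 of the 28 probe sets were at or above the floor on both arrays, 4 on the p53 on array alone, none on the p53 off array alone, and 5 on neither. Of the 23 measured, 6 were at least 2-fold higher with p53 on, against 14% of all measured probe sets, and 0 were at least 2-fold lower, against 13%. The 6 were those of OSBPL6 (3), OSBPL1A (2) and OSBPL7 (1). Of the 19 with both signals at or above the floor, 3 were at least 2-fold higher (13.6% of all such probe sets), none was at least 2-fold lower (14.9%), and 16 lay between. By gene, 3 of 10 members were at least 2-fold higher, against 15.2% of measured genes, and none was at least 2-fold lower, against 13.4%. At 1.5-fold, 5 members were higher (25.8% of measured genes) and 2, OSBPL8 and OSBPL9, were lower (25.8%). The members were proposed with these ratios known, so nothing is read from the counts.

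By gene, the median log2 ratio of the 10 members was 0.48, against 0.0044 over all measured genes. The gap of 0.47 was 0.62 after quantile normalization and 0.65 after loess. Scaling to the spike-ins put the members' median at -0.44 and the gap at 0.35. By probe set the family lay closer to the array. The median log2 ratio was 0.17 over the 23 measured probe sets and -0.0097 over all measured probe sets, and it was 0.052 over the 20 measured ones outside OSBPL6. Over the 19 with both signals at or above the floor it was -0.020, against -0.098 over all such probe sets. With the 5 unmeasured ones at 0, the median over all 28 was 0. OSBPL6 apart, the ratios with dim signals at the floor ran from -0.90 (OSBPL8) to 1.84 (OSBPL7). Several readings of a gene often disagreed. In log2 terms, the median distance of the other measured probe sets from the brightest was 0.80 in the family (13 probe sets) and 0.56 over all genes (11984 probe sets). All measured probe sets had the same sign in 5 of 8 members with several, or 62.5%, against 58.6% of 6680 genes.

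**Figure D3:**
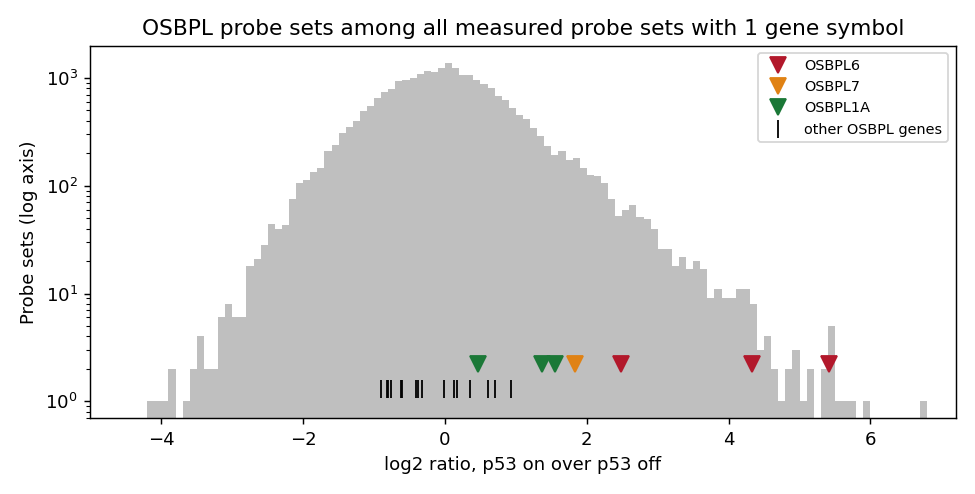
Histogram of the log2 ratio of the p53 on over the p53 off signal for the 25962 measured probe sets with a single gene symbol (counts on a log axis), with coloured triangles for OSBPL6, OSBPL7 and OSBPL1A and black ticks for the other OSBPL genes. The 16 other probe sets lie between -0.90 and 0.93, and the 3 of OSBPL6 reach the right tail.

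The directions are relative to the scaling of the arrays. After quantile normalization and after loess, the same 3 members were past 2-fold and no brightest probe set changed sign, with OSBPL6 at 5.41 and 5.42, OSBPL7 at 1.85 and 1.95 and OSBPL1A at 1.57 and 1.59. After spike-in scaling, the median measured gene moved to -0.79. OSBPL6 then stayed at least 31.4-fold higher, OSBPL7 was 1.89-fold and OSBPL1A 1.55-fold higher, and OSBPL3, OSBPL8 and OSBPL9 were at least 2-fold lower, at log2 ratios of -1.30, -1.74 and -1.55. Those 3 of 10 members stood against 41.3% of all measured genes at least 2-fold lower under this scaling, and OSBPL6, the 1 member still at least 2-fold higher, against 5.84%. OSBPL2, OSBPL10 and OSBPL11 changed sign under this scaling, to -0.57, -0.31 and -0.80. Relative to the median gene it left OSBPL6 at 5.76, OSBPL7 at 1.71 and OSBPL1A at 1.43. The floor was set anew from the scaled signals and was lower, so the OSBPL6 bound dropped less than the other ratios. Its p53 on signal was scaled like every other.

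**Figure D4:**
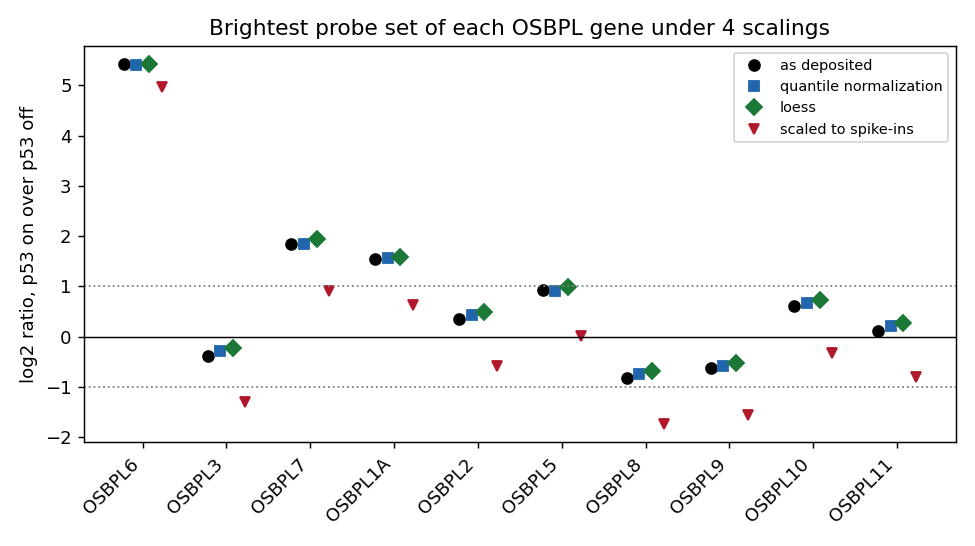
Log2 ratio of the p53 on over the p53 off signal on the brightest probe set of each OSBPL gene, for the deposited signals and after quantile normalization, loess and scaling to the spike-ins, with dotted lines at 2-fold. The first 3 settings nearly coincide, and the spike-in scaling shifts the genes down. OSBPL6 moves less, to 4.97, because the floor under its p53 off signal was set anew from the scaled signals.

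Both founding family genes were within 2-fold. OSBP, the sterol carrier between the endoplasmic reticulum and the Golgi, read 1759 on the p53 on array and 2416 on the p53 off array on its brightest probe set, 201800_s_at. On 201799_s_at OSBP read 827 with p53 on and 1160 with p53 off. Its log2 ratios were -0.46 and -0.49, so both were on the lower side and within 2-fold. OSBP2, which encodes ORP4, read 309 on the p53 on array and 239.5 on the p53 off array on 223432_at, 1.29-fold higher. After spike-in scaling, 1 of these 2 genes was at least 2-fold lower, against 41.3% of all measured genes.

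By Euclidean distance in the 2 floored log2 signals, over 2 arrays, the genes most like OSBPL6 were MARCHF3, IFIT3 and HOXD10, at distances of 0.0045, 0.059 and 0.089. Signals were 4835 on the p53 on array and 74.3 on the p53 off array for MARCHF3, 4628 with p53 on and 63.1 with p53 off for IFIT3, and 4532 with p53 on and 43.6 with p53 off for HOXD10. Like OSBPL6, they were under the floor with p53 off. With 2 arrays, and these p53 off signals set to the floor, this likeness says only that the p53 on signals were close. The p53 off signals under the floor were not compared, and probe sets differ in brightness for the same amount of RNA.

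Genes that act with the ORPs were listed by role, and among these the endoplasmic reticulum anchors with an MSP domain, to which ORPs bind, were mostly even. Of 5 measured, 1 was lower by at least 2-fold and none was higher, against 13.4% and 15.2% of all measured genes. The median log2 ratio was -0.078 against 0.0044 over all measured genes. After spike-in scaling, 2 of the 5 anchors were at least 2-fold lower and none was higher. The shares over all measured genes were then 41.3% and 5.84%. VAPB, a VAP protein, read 1575 with p53 on and 3551 with p53 off and was 2.25-fold lower, with its other probe set also lower at -1.34. MOSPD2 and MOSPD3 had log2 ratios of -0.44 and -0.078. Among the protein partners of single ORPs, RILP, which joins ORP1L and RAB7A to the dynein motor, read 1350.1 with p53 on and 254.0 with p53 off and was 5.32-fold higher on its only probe set. NUP62, a nuclear pore protein that binds ORP8, was 3.04-fold lower, at 610.1 with p53 on and 1857 with p53 off, and GABARAPL2, the partner of ORP7, had a log2 ratio of -0.93. Over the 5 partners 1 gene was higher by at least 2-fold and 1 lower (15.2% and 13.4% of all measured genes), with a median of -0.50. After spike-in scaling, 1 partner was higher and 4 were lower at 2-fold (5.84% and 41.3% of all measured genes).

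Phosphatidylinositol 4-phosphate is the counter-cargo of the ORPs. Of 10 measured genes of its turnover, 2 were higher by at least 2-fold and none was lower, against 15.2% and 13.4% of all measured genes. Their median log2 ratio was 0.099. The 2 were EFR3B and TTC7A, which belong to the complex that holds the kinase PI4KA at the plasma membrane. EFR3B read 707.8 with p53 on and 133.6 with p53 off, 5.30-fold higher, with its other probe set at a log2 ratio of 0.90. TTC7A read 997.7 with p53 on and 424.2 with p53 off, 2.35-fold higher, with probe sets from 0.27 to 2.19 on the log2 scale. SACM1L, the phosphatase that removes the lipid at the endoplasmic reticulum, was 1.88-fold lower at 1548 with p53 on and 2907 with p53 off. After spike-in scaling, 1 of the 10 turnover genes was higher and 4 were lower at 2-fold (5.84% and 41.3% of all measured genes). The enzymes that make phosphatidylserine, the cargo of ORP5 and ORP8, were both on the lower side. PTDSS1 read 3826 with p53 on and 8588 with p53 off, 2.24-fold lower, and PTDSS2 had a log2 ratio of -0.31. Spike-in scaling put both at least 2-fold lower, against 41.3% of all measured genes.

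Lipid transfer proteins outside the family formed the longest list. Of 27 measured, 8 were higher and 1 was lower by at least 2-fold, against 15.2% and 13.4% of all measured genes. Their median log2 ratio was 0.69, against 0.0044 over all measured genes. After quantile normalization 7 were higher (14.47% of all measured genes), and after loess 10 (15.02%). PITPNC1, a phosphatidylinositol transfer protein, read 2878 with p53 on and 374.2 with p53 off and was 7.69-fold higher, with its 4 probe sets between 0.71 and 2.94 on the log2 scale. PLEKHA8, a glycolipid carrier that binds phosphatidylinositol 4-phosphate, read 3070 with p53 on and 784.1 with p53 off and was 3.91-fold higher, but another probe set had a log2 ratio of -0.047. ESYT3, an extended synaptotagmin, was at least 2.97-fold higher, at 333.8 with p53 on and 40.8 with p53 off. The lower one was CERT1, the ceramide carrier, chosen after its values were seen, at 772.2 with p53 on and 1761 with p53 off, 2.28-fold lower, and each of its 4 probe sets was on that side. After spike-in scaling the median of this list turned to -0.48, with 3 genes higher and 6 lower at 2-fold (5.84% and 41.3% of all measured genes), and it stood 0.31 above that of all measured genes.

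In the list of oxysterol synthesis and sensing, 12 of 18 genes were measured, with a median of -0.41. None of these 12 encodes an enzyme that makes an oxysterol, so the median and counts do not cover the synthesis side. At 2-fold 4 were higher and 4 lower, against 15.2% and 13.4% of all measured genes. ABCG1, a sterol exporter, read 416.3 with p53 on and 55.2 with p53 off and was at least 3.70-fold higher, although another probe set had -0.087. RXRA, the partner receptor of the oxysterol receptors, read 3031 with p53 on and 937.9 with p53 off, 3.23-fold higher. Its other probe set had a log2 ratio of 0.51. SREBF2, which drives cholesterol synthesis genes, read 274.6 with p53 on and 988.0 with p53 off, 3.60-fold lower, with its 3 probe sets from -1.85 to -0.32. The others past 2-fold were chosen after their values were seen. ABCA1 (2.54-fold) and MYLIP (2.33-fold) were on the higher side, the 5 probe sets of MYLIP running from 0.11 to 1.22 on the log2 scale. SREBF1 (2.79-fold), the oxysterol receptor gene NR1H3 (2.60-fold) and LPCAT3 (2.07-fold) were on the lower side. After spike-in scaling, 1 gene of this list was at least 2-fold higher and 7 lower, against 5.84% and 41.3% of all measured genes.

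**Figure D5:**
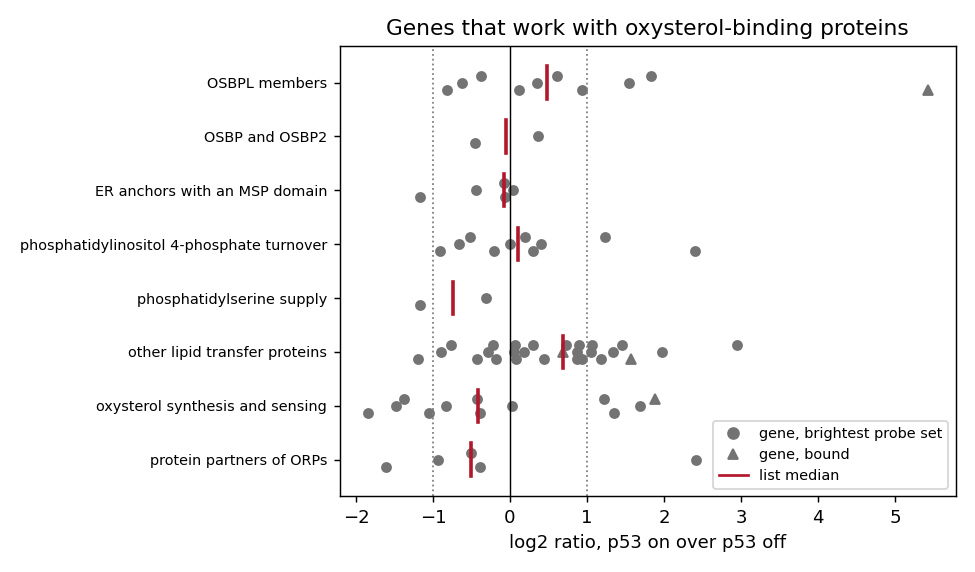
Log2 ratio of the p53 on over the p53 off signal for the genes of each list by brightest probe set, with triangles for bounds, red bars for list medians and dotted lines at 2-fold. The list medians run from -0.74 for the 2 phosphatidylserine synthases to 0.69 for other lipid transfer proteins, and OSBPL6 stands at 5.42.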

How the data were processed

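The deposited values are linear signal intensities that the authors computed by MAS5, per the submitters' processing notes. A software version, the background method and detection calls were not given in the sources used here. By their values, both arrays had been scaled to the same trimmed mean, and no scaling was added. An array has no read depth, and the number of arrays, 1 per condition, limits the precision.

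Of 54613 probe sets that were not controls, 41091 had a single symbol in GEO's platform annotation, 1801 had several and 11721 were unnamed here. RefSeq (GRCh38.p14) gave the present symbol through the Entrez identifier for 41037 of the 41091. A gene is represented by its measured probe set with the highest mean signal, and called at 2-fold. Named genes were all members, OSBP and OSBP2, and the 3 with the largest absolute log2 ratio of each list, and any other is marked in the text. The cell type markers named, EPCAM, KRT20, CDX1 and PTPRC, were not picked by this rule. The members and lists were chosen with earlier results of these data known. The gene that encodes p53 is not reported here, so the names p53 on and p53 off rest on the labels alone.

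The alternatives moved the floor to the 40th or the 60th percentile, or used pseudocounts of 1 and of the floor value without a floor, centring, quantile normalization, loess (span 0.3), scaling to the spike-ins, leaving out probe sets marked for shared sequence (_x_at alone, or _x_at and _s_at), and the mean over a gene's probe sets. The ratio code was tested on simulated data. Python 3.11.15, numpy 2.4.6, pandas 2.3.3, statsmodels 0.14.6 and matplotlib 3.10.9 were used.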

Additional observations from a re-analysis of the deposited data

Results flagged for a closer look

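Control probe sets differed between the arrays. They enter no ratio of the deposited signals, and the spike-ins enter only the ratios after spike-in scaling. The beta-actin 3' signal was 7.29 times its 5' signal on the p53 on array, against 1.37 on the p53 off array. For GAPDH this ratio was 1.77 on the p53 on array and 0.97 on the p53 off array. The hybridization spike-ins, which are added to each sample in a fixed amount, had a median p53 on signal 1.89 times the p53 off signal. The place of each OSBPL probe set along its transcript is not in the files used here, so the part of the 3' to 5' difference in the disagreement between probe sets of OSBPL2, OSBPL5 and OSBPL11 was not tested.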

How the results depend on the processing

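OSBPL6 kept its direction and its side of 2-fold under all 11 alternatives. Its log2 ratio was 5.42 with the floor, 7.67 with a pseudocount of 1 in place of the floor and 4.08 as the mean over its probe sets, so its size depends on how dim signals are treated. Scaling to the spike-ins, under which the median of all measured probe sets moved to -0.77, left 3 of the 6 member probe sets at least 2-fold higher and put 9 at least 2-fold lower in place of 0, against 4.96% and 40.2% of all measured probe sets. By gene it left 1 member at least 2-fold higher in place of 3, and put 3 at least 2-fold lower in place of 0. The shares over all measured genes were 5.84% and 41.3% under this scaling. Under the other 9 settings the counts of member probe sets stayed within 1.5 times of 6 higher, and under the other 10 those of members within 1.5 times of 3 higher. The median log2 ratio of the measured member probe sets ran from -0.66 to 0.59. OSBPL1A fell under 2-fold without probe sets marked _x_at or _s_at, at a log2 ratio of 0.46, and that of OSBPL7 ran from 0.92 to 1.95. No paired analysis was possible because each condition has 1 array. Signals under the floor of 112.4 have no order. This limits OSBPL6 and probe set 216755_at of OSBPL10 with p53 off, and 5 of the 28 member probe sets on both arrays.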

Other observations

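None of the measured protein-coding neighbours of OSBPL6 in the RefSeq gene order was called higher at 2-fold, against 15.2% of all measured genes. With so few neighbours, nothing is read from this. This comparison was added after the ratios of the family had been seen, and neighbours were taken by position alone, 2 on either side. PDE11A read 23.5 with p53 on, under the floor, and 146.2 with p53 off, so it was lower, with a floored log2 ratio of -0.38 that bounds the size from below only. RBM45 lay on the same side of OSBPL6 at a log2 ratio of -0.19, and PRKRA and PJVK on the other at -0.91 and 0.15 (a bound). Around OSBPL7, the nuclear import gene KPNB1, at 4817 with p53 on and 12976 with p53 off, had a log2 ratio of -1.43, and NPEPPS, MRPL10 and LRRC46 had -0.45, -0.51 and -0.33 (a bound). Around OSBPL1A, TTC39C read 1733 with p53 on and 262.1 with p53 off, 6.61-fold higher, CABYR was 1.95-fold higher, SS18 had 0.62 and IMPACT -0.63. Large ratios, chosen after their values were seen, also lay beside members within 2-fold: CSRP2, a LIM protein gene and the second measured gene after OSBPL8, read 18084 with p53 on and 1052 with p53 off, 17.2-fold higher, and GPD1L next to OSBPL10 read 4293 with p53 on and 405.1 with p53 off, 10.6-fold higher. On the lower side, TGFBR2 near OSBPL10 read 560.1 with p53 on and 3112 with p53 off, a log2 ratio of -2.47, and PALS2 near OSBPL3 read 139.7 with p53 on and 710.6 with p53 off, a log2 ratio of -2.35.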
